A study of Xenopus tropicalis with 6 samples.

Results

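The genes described here encode the machinery that copies DNA and the enzymes that supply its building blocks. Of 50 listed symbols for origin recognition, replication licensing, the replicative helicase, DNA polymerases, clamp loading, Okazaki fragment maturation and nucleotide synthesis, 49 matched a gene by exact name. All 49 had a group mean of at least 1 TPM (transcript abundance per length of transcript, scaled so that every sample has an equal total) in either group and were tested, out of 13382 genes tested among 23634 in the table. The exact symbol *rrm2* matched no gene and was not analyzed under that name, and its *Xenopus* copies are described with the nucleotide enzymes.

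RNA came from whole *Xenopus tropicalis* embryos of the Nigerian strain, collected at Stage 16 of neurulation, when the neural plate is folding. Embryos in 3 samples had received 10 ng of antisense morpholinos that block splicing of *n1-src*, the neural splice form of the tyrosine kinase gene *src*, and are called morphants. Sibling embryos, in the other 3 samples, received 10 ng of a control morpholino. The series' design text names *Xenopus laevis*, whereas the sample labels and the paper's methods name *X. tropicalis*, which is followed here. How many embryos were pooled in a sample is not given in the sources used here, and in whole embryos a change in the share of a cell type and a change in the RNA of each cell cannot be told apart.

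DNA replication starts when the origin recognition complex (ORC) marks chromatin and CDC6 and CDT1 load the ring-shaped MCM helicase, made of the products of *mcm2* to *mcm7*. CDC45 and the GINS complex then turn the loaded ring into an active helicase, polymerase alpha with primase lays down primers, and polymerases delta and epsilon extend them with the sliding clamp PCNA. *Xenopus* eggs stockpile replication proteins and transcripts for the rapid early cleavages, and by neurulation embryos combine this maternal supply with zygotic expression. Dividing progenitors of the neural plate need the same genes, whereas neurons leave the cell cycle as they differentiate.

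The targeted gene *src* was measured at 18.7, 25.8 and 49.2 TPM in control samples 1 to 3 and at 15.6, 17.3 and 34.6 TPM in the morphant samples of the same numbers, lower in every set, although values per gene hold *n1-src* and *c-src* together. The samples held markers of a whole neurula. For example, the neural plate gene *sox2* lay between 244.2 and 289.8 TPM and the muscle regulator *myod1* between 324.6 and 423.1 TPM, and no measured marker of 8 cell type lists was at 0. LOC108645507 and LOC100335111 together made up 4.89% of the TPM of morphant sample 1, against 0.193 to 0.525% in the other samples. Each sample sums to the same total, and TPM carry no read depth, so the spread between samples is the only error given.

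By their median, replication genes were abundant in these embryos. The median of the 49 genes was 34.7 TPM over all samples, against 10.9 TPM for all genes tested. Together these 49 of the 13382 genes tested made up 0.289 to 0.331% of the TPM in control samples and 0.271 to 0.320% in morphants. That share does not by itself show high levels. The helicase gene *mcm7* (531.8 TPM, percentile 97.7 of the genes tested) and the clamp gene *pcna* (422.9 TPM, percentile 97.3) stood highest, and *mcm6* (1.89 TPM), *orc5* (2.95 TPM) and *wdhd1* (3.56 TPM) lowest. Subunits of one complex were far from equal in TPM, which is a scale per length of transcript and can be compared between genes. The low level of *mcm6* depends on the exact symbol, since a separate gene, *mcm6.2*, described below, averaged 139.4 TPM.

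**Figure D1:**
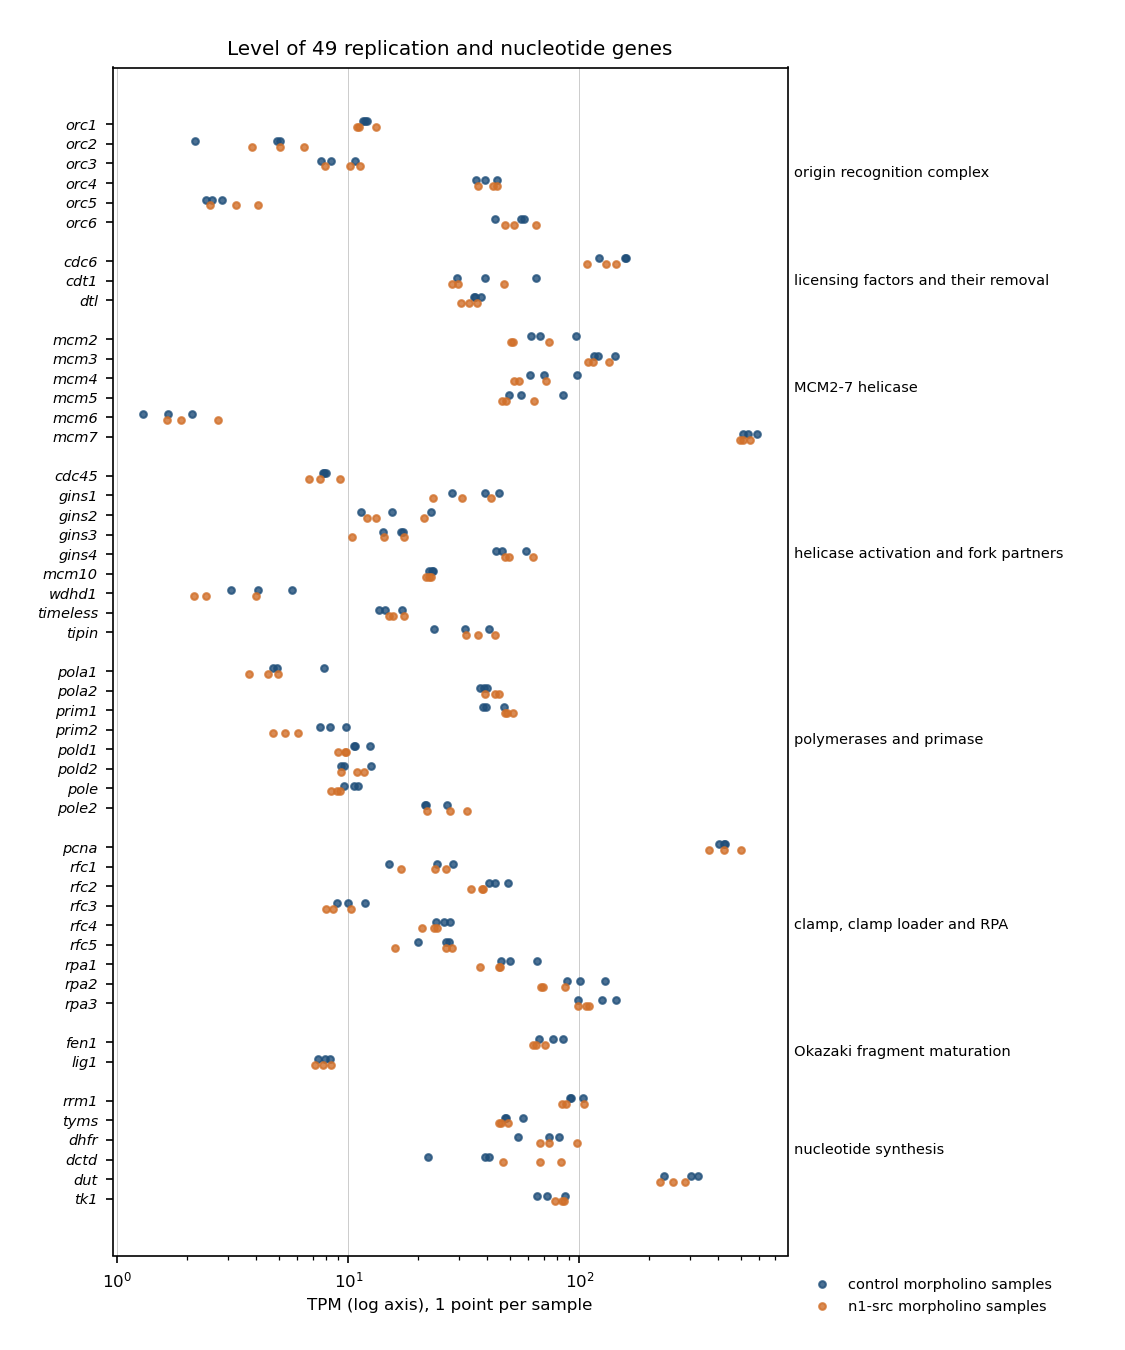
TPM of the 49 genes on a log axis, with 1 point for each of the 3 control (blue) and 3 morphant (orange) samples, grouped by role. Both groups overlap for 41 of the genes, while *dctd* and *prim1* lie higher and *prim2*, *pold1*, *pole*, *rfc2*, *rpa1* and *rpa2* lie lower in all 3 morphant samples than in any control sample.

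The main question was whether expression of these genes differed between control embryos and morphants. A single gene, *dctd*, rose, and 4 genes fell: the RPA subunit gene *rpa2*, the helicase gene *mcm2*, the primase gene *prim2* and the fork factor gene *wdhd1*. The other 44 did not pass the test, which was limma on log2(TPM + 0.5) with the replicate number as a block and a Benjamini-Hochberg adjusted p of at most 0.05 over all genes tested. The 4 lower calls are 8.16% of the 49 genes, beside 5.87% of all genes tested called lower, and the 1 higher call is 2.04%, beside 2.62% of all genes called higher. These shares lie near the background and are read as calls on single genes, not as a property of the list. The median log2 fold change was -0.075 for the list and -0.068 for all genes tested.

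Further counts were set beside the same background. At an unadjusted p under 0.05, 16 genes (32.7%) were lower, beside 23.4% of all genes tested, and 3 (6.12%) were higher, beside 9.76%. Which direction held more of the 49 genes changed with median scaling of samples, as given below, and so did the sign of the median of all genes. In all 3 replicate sets, 22 genes (44.9%) were lower in the morphant sample, beside 38.5% of all genes, and 9 (18.4%) were higher, beside 17.6%. The ranges of both groups did not overlap for 6 genes lower in morphants (12.2%, beside 11.3% of all genes) and for 2 genes higher (4.08%, beside 3.71%).

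**Figure D2:**
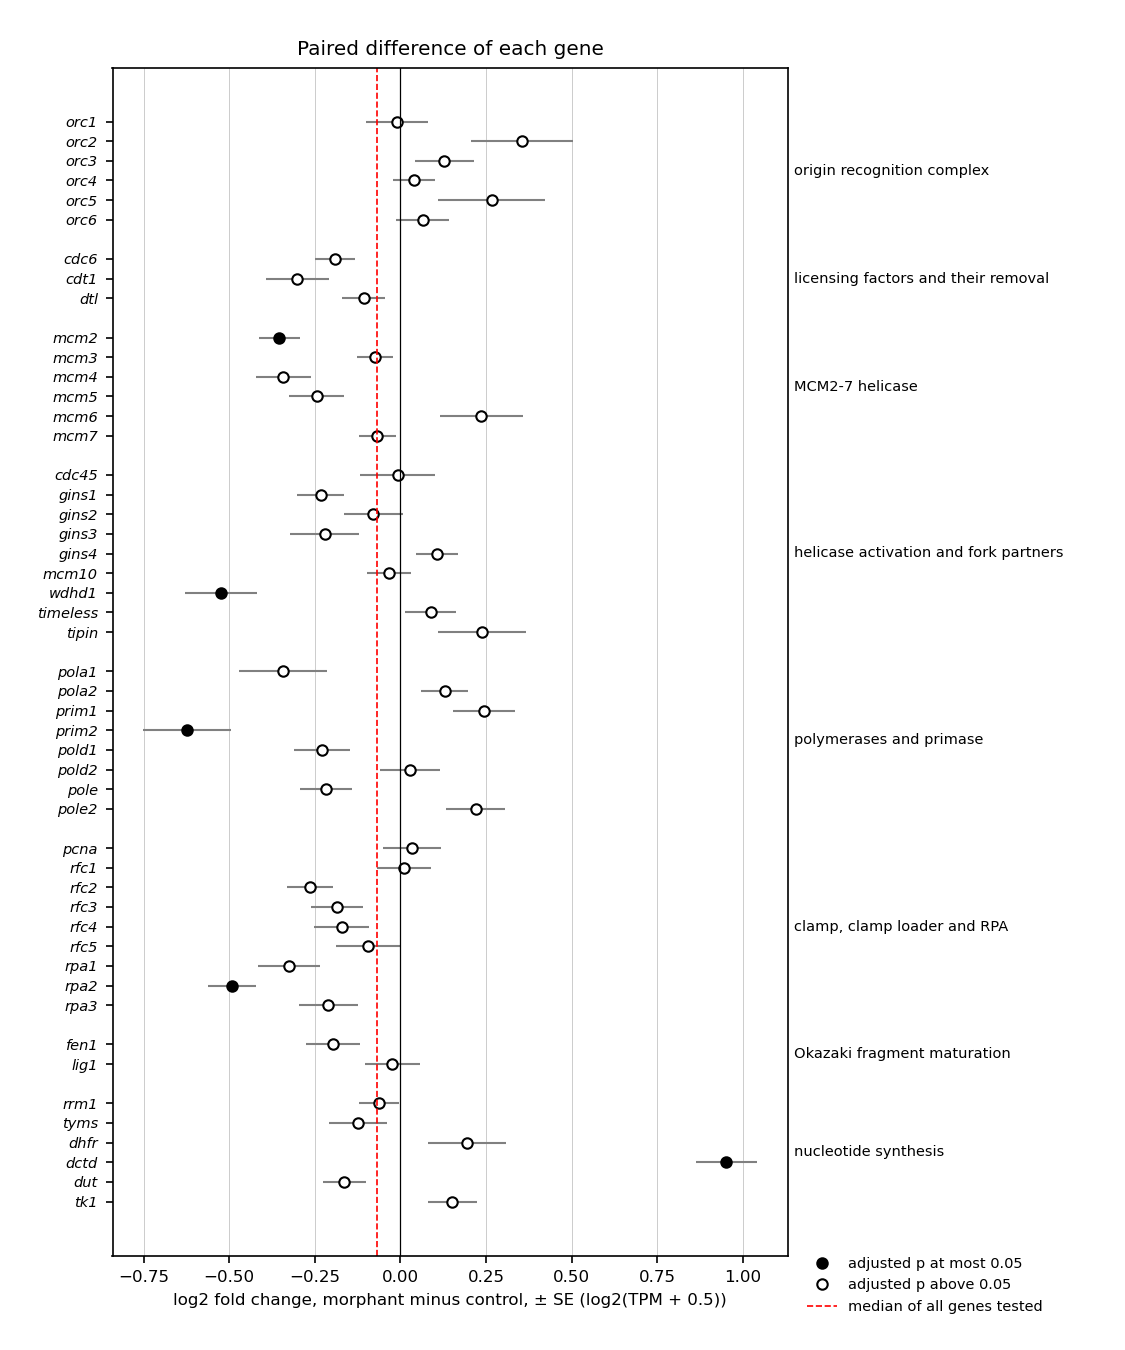
Log2 fold change of each gene, morphant minus control, from the paired fit on log2(TPM + 0.5) (n = 3 sets). Bars are the standard error of that fit, whose variances were moderated across genes. Filled points passed an adjusted p of 0.05, open points did not, and the dashed red line marks the median of all genes tested, at -0.068.

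These calls depend on pairing. Embryos of the same replicate number resembled each other, and for 41 of the 49 genes (83.7%, as for 85.3% of all genes) the log2 range between the 3 control samples exceeded the difference between groups. Without the replicate block, limma called 0 of the 49 genes and 1 gene in all. At an unadjusted p under 0.05, 2 of the 49 were lower there, beside 855 of 13382 genes (6.39%). Likewise 1 was higher, beside 269 genes (2.01%). Without a filter on low TPM, the paired fit called 0 of 21387 genes. At an unadjusted p under 0.05 that fit gave 15 of the 49 lower, beside 3512 of 21387 genes (16.4%), and 3 higher, beside 1463 (6.84%). Those 21387 genes include ones under the 1 TPM filter, which all 49 pass, so the shares are not of like genes. With median scaling, which shifts each sample to the same median, *rpa2* was the only one of the 49 called lower, beside 2.85% of all genes, and *dctd* the only one called higher, beside 3.98%. At an unadjusted limma p under 0.05, median scaling gave 6 of the 49 lower and 11 higher, with 4214 of 13382 genes in either direction. That total was not split by direction, so the counts lower and higher have no matching share of all genes. The median log2 fold change of all genes moved from -0.068 to 0.029 with that scaling.

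The largest log2 fold change of the 49 genes was that of *dctd*, which encodes dCMP deaminase, the enzyme that turns dCMP into the dUMP used for thymidylate synthesis. It was measured at 22.2, 40.7 and 39.1 TPM in control samples 1 to 3 and at 46.6, 67.3 and 83.4 TPM in the morphants. Every morphant sample lay above every control sample, although the first sample of each group was the lowest. Morphants averaged 65.8 ± 18.5 TPM and controls 34.0 ± 10.2 TPM (SD, n = 3 each), so the morphant mean was 193.4% of control. The log2 fold change was 0.95 (standard error, SE, 0.089, limma adjusted p = 0.0157 over all genes tested), with 1.05, 0.72 and 1.08 in the 3 sets. The call was kept in 11 of 13 alternative settings, with any set left out among them, and was lost without the block (adjusted p = 0.485) and without the filter (adjusted p = 0.0591), the adjusted p of all 13 ranging from 0.0102 to 0.485.

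**Figure D3:**
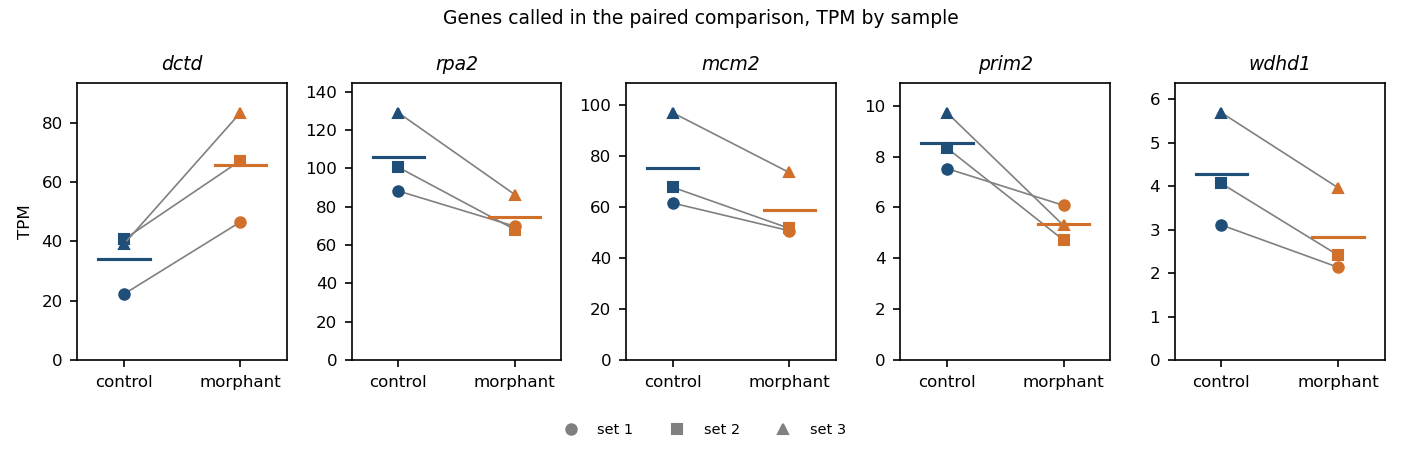
TPM of the 5 genes called in the paired fit, on linear axes that start at 0. Circles, squares and triangles are replicate sets 1, 2 and 3, grey lines join the control and morphant samples of a set, and horizontal bars are group means, which were 34.0 and 65.8 TPM for *dctd*.

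The other nucleotide enzyme genes of the list did not pass the test. The product of dCMP deaminase, dUMP, is also made by dUTPase, encoded by *dut*, the most abundant nucleotide gene of the list. It was measured at 232.4, 303.0 and 324.8 TPM in control samples and at 223.3, 253.7 and 287.0 TPM in morphants, with overlapping groups (log2 fold change -0.16, adjusted p = 0.132 from limma). The ratio of *dctd* to *dut* within a sample, which no scaling of the sample can move, was 0.0956, 0.134 and 0.120 in controls and 0.209, 0.265 and 0.291 in morphants. The ratio was higher in all 3 sets, by 1.13 ± 0.14 on the log2 scale (SD, n = 3 sets). This pair was chosen after values were seen and was not tested. Its direction follows from *dctd* being higher and *dut* lower in every set, so it adds no separate support.

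Thymidylate synthase, encoded by *tyms*, converts dUMP to dTMP, and dihydrofolate reductase, encoded by *dhfr*, regenerates its folate cofactor. Their means were 50.8 and 46.5 TPM for *tyms* and 69.8 and 79.8 TPM for *dhfr*, in controls and morphants, with overlapping groups and no call. Without replicate set 1, *dhfr* passed the threshold (log2 fold change 0.36, adjusted p = 0.0407), but not without set 2 (adjusted p = 0.729) or set 3 (0.606), and over its 3 sets the difference was of mixed sign. Thymidine kinase, encoded by *tk1*, which salvages thymidine, had means of 74.8 and 82.7 TPM (log2 fold change 0.15, adjusted p = 0.202). The large subunit of ribonucleotide reductase, encoded by *rrm1*, had 95.8 ± 6.86 TPM in controls and 92.0 ± 11.2 TPM in morphants (SD, n = 3 each, log2 fold change -0.062, 95% confidence interval -0.21 to 0.083).

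The small subunit of ribonucleotide reductase is encoded by duplicated genes in this frog, and RefSeq (assembly UCB_Xtro_10.0) gives *rrm2* as a synonym of both *rrm2.1* and *rrm2.2*. They are no members of the list and are named here after their values were seen. The abundant copy, *rrm2.2*, was at 507.7, 530.9 and 531.2 TPM in controls and at 399.7, 485.7 and 508.2 TPM in morphants (log2 fold change -0.18, adjusted p = 0.148). The minor copy, *rrm2.1*, was at 31.4, 17.6 and 15.4 TPM in controls and at 40.6, 28.0 and 25.7 TPM in morphants, higher in every set although the groups overlap. It was called higher (log2 fold change 0.58, SE 0.089, limma adjusted p = 0.0290, and 0.658 without the block).

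The ratio of *rrm2.2* to *rrm2.1* within a sample was 16.2, 30.1 and 34.4 in controls and 9.85, 17.4 and 19.8 in morphants. Its log2 differences were -0.71, -0.79 and -0.80 in the sets. A lower ratio follows from *rrm2.2* being lower and *rrm2.1* higher in every set, so it adds no separate support. With both copies summed, the log2 fold change was -0.14 (adjusted p = 0.216). How Salmon shared reads between such similar copies is not known from gene-level values, so the split between copies is uncertain.

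ORC subunits ranged from 2.95 TPM for *orc5* to 53.6 TPM for *orc6*, and none was called. The most abundant, *orc6*, was at 56.1, 57.5 and 43.3 TPM in controls and 51.9, 64.9 and 47.6 TPM in morphants. The largest difference in the complex was in *orc2*, at 2.16, 5.04 and 4.90 TPM in controls and 3.81, 5.06 and 6.44 TPM in morphants, where the first control sample stood low (log2 fold change 0.36, adjusted p = 0.159). Of the 6 ORC genes, 5 had a positive log2 fold change, with a median of 0.097. Positive values were found for 18 of the 49 genes and for 5041 of all 13382 genes tested. Of the 6, only 2 were higher in all 3 sets, and 0 had an unadjusted limma p under 0.05. *orc1* differed by -0.010 (95% interval -0.23 to 0.21), or 0.086 with median scaling, and *orc3* and *orc4* by 0.13 and 0.039.

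The loading factors had lower values in morphants in every set without passing the test. *cdc6*, whose product brings CDT1 and the helicase to ORC, was at 121.1, 158.1 and 158.5 TPM in controls and at 107.8, 130.3 and 144.8 TPM in morphants (log2 fold change -0.19, adjusted p = 0.0897). *cdt1* was at 29.5, 38.9 and 65.2 TPM in controls and at 28.2, 29.9 and 47.2 TPM in morphants, with the third sample of each group highest (log2 fold change -0.30, adjusted p = 0.0878). Without replicate set 1, *cdt1* was called lower (log2 fold change -0.42, adjusted p = 0.0367), but not without set 2 (adjusted p = 0.281) or set 3 (0.275). *dtl*, whose product directs the destruction of CDT1 during S phase, had means of 36.0 and 33.4 TPM (log2 fold change -0.11, adjusted p = 0.285).

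Within the MCM ring, *mcm2* fell. It was measured at 61.7, 67.9 and 97.2 TPM in controls and at 50.8, 51.7 and 73.7 TPM in morphants, with the third set highest in both groups and the groups overlapping through it. Its mean was 75.6 ± 19.0 TPM in controls and 58.7 ± 12.9 TPM in morphants (SD, n = 3 each), or 77.7% of control. The log2 fold change was -0.35 (SE 0.060, limma adjusted p = 0.0325), with -0.28, -0.39 and -0.40 in the sets. The call was kept in 7 of 13 alternatives, with adjusted p from 0.0265 to 0.721, the highest without the block. Among others it was lost without set 2 (0.129), without set 3 (0.0954) and with median scaling (0.0597).

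Partners of *mcm2* in the ring differed in size of change. For *mcm4* the values were 61.1, 70.6 and 97.8 TPM in controls and 55.0, 52.2 and 71.7 TPM in morphants, and the log2 fold change of -0.34 narrowly missed the threshold (adjusted p = 0.0536, with 0.0274 without set 1, 0.198 without set 2 and 0.169 without set 3). *mcm5* had means of 63.6 and 52.6 TPM (log2 fold change -0.24, adjusted p = 0.10). The abundant *mcm7* was at 511.0, 536.0 and 586.6 TPM in controls and at 497.2, 510.9 and 549.3 TPM in morphants, a log2 fold change of -0.068 (95% interval -0.20 to 0.063) that turned to 0.029 with median scaling. *mcm3* gave -0.075 (95% interval -0.21 to 0.056), or 0.022 with median scaling.

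Ratios between partners were taken within samples, on pairs chosen after values were seen and without a test. The ratio of *mcm2* to *mcm7* was 0.121, 0.127 and 0.166 in controls and 0.102, 0.101 and 0.134 in morphants, lower in each set, with a mean of -0.29 ± 0.043 on the log2 scale (SD, n = 3 sets). *mcm4* to *mcm7* gave -0.28 ± 0.14, and *mcm2* to *mcm4* gave -0.013 ± 0.10, of mixed sign. *mcm5* to *mcm7* gave -0.18 ± 0.14, and *mcm6.2*, a further ring gene described below, gave -0.16 ± 0.057 to *mcm7*. The log2 fold change of *mcm7* was -0.068, like the median of all genes tested. Ratios to *mcm7* therefore largely restate the fall of the other gene. Each of *mcm2*, *mcm4*, *mcm5* and *mcm6.2* lay lower relative to *mcm7* in all 3 sets. This did not extend to the whole ring. The set differences of *mcm3* were -0.080, -0.070 and -0.075, beside -0.040, -0.069 and -0.095 for *mcm7*, so *mcm3* fell less in set 3. The low *mcm6* was higher in every set while *mcm7* was lower. No ratio of *mcm3* or *mcm6* to *mcm7* was taken. The ratio of *mcm2* to *mcm4* differed by less than the spread between sets.

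The last ring subunit is encoded by more than a single gene. The RefSeq table lists *mmcm6*, the name of the maternal form in *Xenopus*, as a synonym of *mcm6*, and a separate gene *mcm6.2*, which was looked up after the low level of *mcm6* was seen. *mcm6* was at 1.29, 1.66 and 2.11 TPM in controls and at 1.64, 1.89 and 2.73 TPM in morphants (log2 fold change 0.24, adjusted p = 0.233). *mcm6.2* was at 144.8, 141.2 and 165.0 TPM in controls and at 130.7, 115.5 and 139.4 TPM in morphants. Its groups did not overlap, but the log2 fold change of -0.23 did not pass the threshold (adjusted p = 0.0645). With both genes summed, the log2 fold change was -0.22 (adjusted p = 0.0685), opposite in sign to that of *mcm6* alone, and the division of reads between the copies is uncertain here too.

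**Figure D4:**
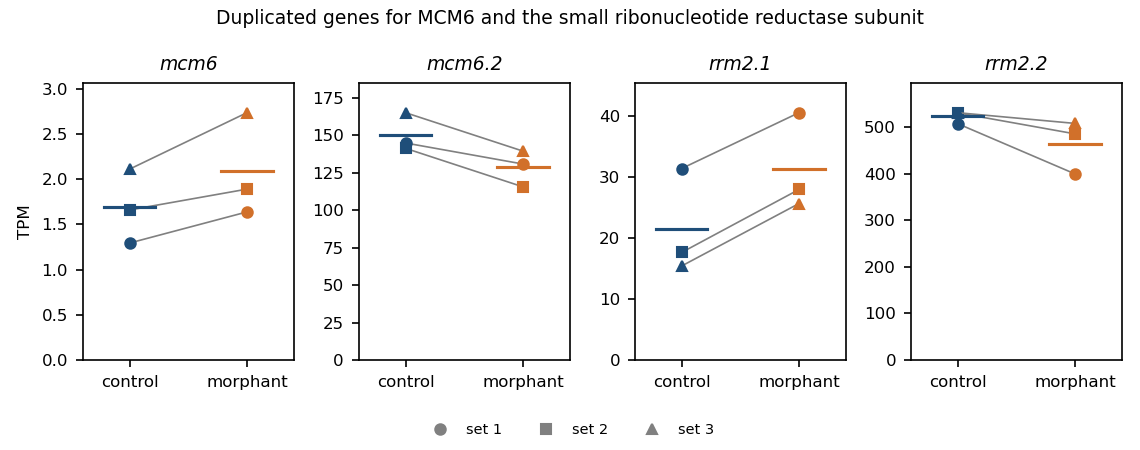
TPM of the duplicated genes *mcm6* and *mcm6.2* and of *rrm2.1* and *rrm2.2* by sample, on linear axes that start at 0. Symbols are replicate sets, grey lines join the samples of a set, and bars are group means. *rrm2.1* is higher and *rrm2.2* lower in the morphant sample of every set.

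Of the factors that turn the ring into a working fork, *wdhd1*, whose product links the helicase to polymerase alpha, fell. It was low, at 3.11, 4.07 and 5.69 TPM in controls and 2.14, 2.42 and 3.97 TPM in morphants, and the highest morphant value lay within the control range. The mean was 66.2% of control, with a log2 fold change of -0.52 (SE 0.11, limma adjusted p = 0.0426) and -0.45, -0.65 and -0.47 in the sets. The call was lost when any set was left out (adjusted p = 0.0579 without set 1, 0.145 without set 2 and 0.136 without set 3) and with median scaling (0.0665). It was kept in 5 of 12 alternatives, which gave 0.0419 to 0.667, the highest without the block. Since both group means were under 5 TPM, the pseudocount of 0.5 makes the fold an understatement.

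*mcm10*, an initiation factor, was level across all samples, at 22.9, 23.3 and 22.3 TPM in controls and 22.4, 22.8 and 21.8 TPM in morphants (log2 fold change -0.033, 95% interval -0.19 to 0.12). *cdc45* was likewise level in controls, at 7.76 to 7.97 TPM, and ran from 6.78 to 9.23 TPM in morphants (log2 fold change -0.0086). The ratio of *wdhd1* to *mcm10* was lower in each set, with a mean log2 difference of -0.57 ± 0.13 (SD, n = 3 sets). Since *mcm10* was level, this ratio restates the fall of *wdhd1*, and the pair was chosen after values were seen.

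GINS genes went in both directions without a call. The most abundant, *gins4*, was at 43.5, 46.4 and 58.9 TPM in controls and at 49.5, 47.7 and 63.2 TPM in morphants (log2 fold change 0.11, adjusted p = 0.278). *gins1* gave -0.23 (adjusted p = 0.0847), and sample 3 was lowest in both groups, whereas for *gins2* it was highest. *gins2* and *gins3* gave -0.079 and -0.22. Of the fork protection partners, *timeless* gave 0.088 and *tipin* 0.24 (adjusted p = 0.443 and 0.247), with sets of mixed sign for *tipin*. *tipin* was called higher without replicate set 1 (log2 fold change 0.43, adjusted p = 0.0367) but not without set 2 (0.15, adjusted p = 0.613) or set 3 (0.13, adjusted p = 0.613).

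Polymerase alpha and primase work as a single complex. Of its genes only *prim2* was called, and the uncalled ones were of mixed sign. *prim2*, the large primase subunit gene, was at 7.53, 8.33 and 9.72 TPM in controls and at 6.08, 4.71 and 5.29 TPM in morphants, so that every morphant sample was below every control. The mean was 8.53 ± 1.11 TPM in controls and 5.36 ± 0.686 TPM in morphants (SD, n = 3 each), or 62.9% of control. *prim2* fell by 0.62 on the log2 scale (SE 0.13, limma adjusted p = 0.0444), and the sets gave -0.29, -0.76 and -0.82. The call was kept in 5 of 13 alternatives, with adjusted p from 0.0216 to 0.430, the highest without the block. Among others it was lost without set 2 (0.131), without set 3 (0.146), with median scaling (0.0623) and without the abundant gene pair of morphant sample 1 (0.0522).

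The catalytic primase gene, *prim1*, was at 47.1, 39.6 and 38.3 TPM in controls and at 47.8, 48.6 and 51.5 TPM in morphants. Its groups did not overlap, by a small margin in the first set, and the log2 fold change of 0.24 did not pass the threshold (adjusted p = 0.127). The ratio of *prim2* to *prim1* was 0.160, 0.210 and 0.254 in controls and 0.127, 0.0970 and 0.103 in morphants, a difference of -0.92 ± 0.52 on the log2 scale (SD, n = 3 sets). Its direction follows from *prim2* being lower and *prim1* higher in every set, and the pair was chosen after values were seen. The catalytic polymerase alpha gene *pola1* gave -0.34 (adjusted p = 0.131) and its accessory subunit gene *pola2* gave 0.13 (adjusted p = 0.240).

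The genes of the extending polymerases had no call. The catalytic genes *pold1* and *pole* had lower values in every set with no overlap of the groups, at 11.2 ± 1.02 against 9.46 ± 0.431 TPM and at 10.4 ± 0.730 against 8.85 ± 0.393 TPM (SD, n = 3 for each group). Their log2 fold changes were -0.23 and -0.22 (adjusted p = 0.120 and 0.116). The accessory genes *pold2* and *pole2* gave 0.028 and 0.22 (adjusted p = 0.848 and 0.140).

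**Figure D5:**
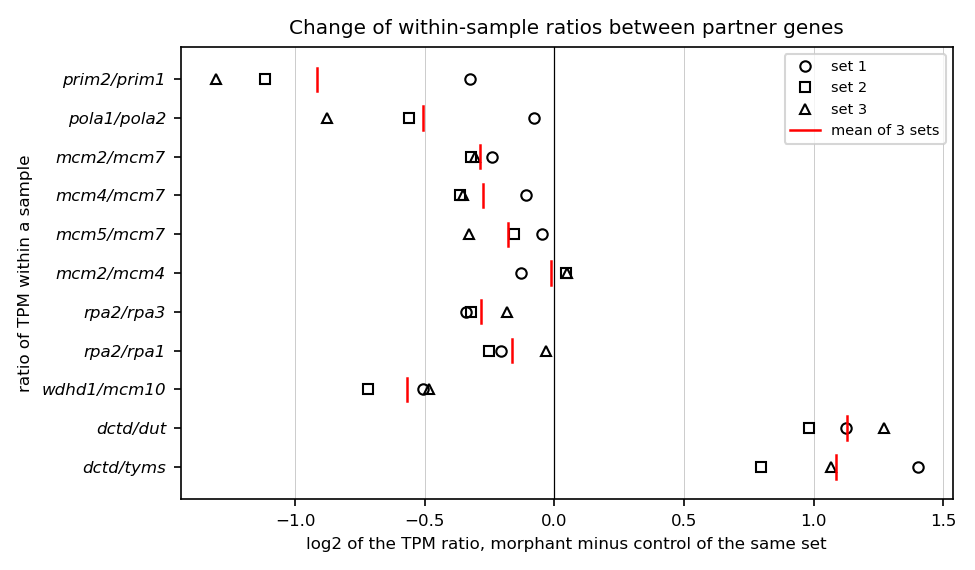
Change of the TPM ratio between partner genes within a sample, as the log2 ratio in the morphant sample minus that in the control sample of the same set. Symbols are the 3 sets and red bars their mean, which was -0.92 for *prim2* to *prim1* and 1.13 for *dctd* to *dut*.

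RPA coats the single strands that the helicase opens. Its middle subunit gene, *rpa2*, was at 88.2, 100.6 and 129.1 TPM in controls and at 69.8, 68.1 and 86.3 TPM in morphants, with every morphant sample below every control. The mean was 105.9 ± 21.0 TPM in controls and 74.7 ± 10.1 TPM in morphants (SD, n = 3 each), or 70.5% of control, and *rpa2* fell by 0.49 on the log2 scale (SE 0.071, limma adjusted p = 0.0275). The sets gave -0.34, -0.56 and -0.58. The call was kept in 8 of 13 alternatives, median scaling among them, with adjusted p from 0.0171 to 0.522, the highest without the block. It was also lost without set 2 (0.0891), set 3 (0.0798), the filter (0.0762) or the mean-variance trend (0.0537).

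The partner subunits gave lower values that did not pass. *rpa1* was at 49.9, 45.9 and 65.5 TPM in controls and at 45.6, 37.0 and 44.9 TPM in morphants, without overlap (log2 fold change -0.33, adjusted p = 0.0737, with 0.0425 without set 1, 0.198 without set 2 and 0.206 without set 3). *rpa3* gave -0.21 (adjusted p = 0.152). The ratio of *rpa2* to *rpa3* was lower in each set, with a mean of -0.28 ± 0.086 (SD, n = 3 sets), and that of *rpa2* to *rpa1* gave -0.16 ± 0.12. These pairs were chosen after values were seen and were not tested. Since *rpa2* had the lowest log2 fold change of the RPA genes, the ratios add no separate support.

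The clamp gene *pcna* did not pass the test, at 400.7, 426.0 and 421.5 TPM in controls and 364.0, 423.7 and 501.2 TPM in morphants. Its log2 fold change was 0.034 (95% interval -0.17 to 0.24), of mixed sign over the sets. The clamp loader genes had no call: *rfc2* came closest, with groups that did not overlap (44.3 ± 4.16 and 36.7 ± 2.54 TPM, SD, n = 3 each, log2 fold change -0.27, adjusted p = 0.0613). *rfc3*, *rfc4* and *rfc5* gave -0.19, -0.17 and -0.095, and the large subunit gene *rfc1* gave 0.011. For Okazaki fragments, the flap nuclease gene *fen1* was at 84.9, 77.1 and 67.0 TPM in controls and at 64.9, 71.2 and 62.8 TPM in morphants (log2 fold change -0.20, adjusted p = 0.143), and the ligase gene *lig1* gave -0.024 (95% interval -0.22 to 0.17).

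Genes around the list were read from the same fit, with the same background of 5.87% of all genes called lower and 2.62% higher, and of 23.4% lower and 9.76% higher at an unadjusted p under 0.05. Of 28 tested genes for other origin and fork factors, 0 were called by limma in either direction (3 or 10.7% lower and 1 or 3.57% higher at an unadjusted p under 0.05), with a median log2 fold change of -0.0024. Of 13 genes for chromatin assembly behind the fork, 2 (15.4%) fell, *rbbp7*, a histone chaperone gene (log2 fold change -0.39, adjusted p = 0.0270), and *hells*, a chromatin remodeler gene (-0.35, adjusted p = 0.0318). At an unadjusted p under 0.05, 5 (38.5%) of the 13 were lower and 0 higher. Of 18 S phase entry genes, 1 (5.56%) fell, *e2f4*, which encodes an E2F transcription factor (-0.35, adjusted p = 0.0444). At an unadjusted p under 0.05, 5 (27.8%) of the 18 were lower and 0 higher. Of 23 mitosis genes, 0 were called by limma (3 or 13.0% lower and 2 or 8.70% higher at an unadjusted p under 0.05), with a median of -0.032.

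Further nucleotide genes held 4 calls. Of 13 tested salvage and breakdown genes, 2 fell (15.4%, beside 5.87% of all genes) and 1 rose (7.69%, beside 2.62%). At an unadjusted p under 0.05, 5 (38.5%) of the 13 were lower and 1 (7.69%) higher. *upp1*, which encodes a uridine phosphorylase, fell from 12.9, 16.1 and 17.7 TPM in controls to 6.67, 7.46 and 8.37 TPM in morphants (log2 fold change -1.0, SE 0.079, limma adjusted p = 0.0133). *hprt1*, which salvages purine bases, fell (-0.33, adjusted p = 0.0376), and *tk2*, a mitochondrial deoxynucleoside kinase gene, rose from 8.22, 10.0 and 10.9 to 13.6, 13.4 and 16.8 TPM (0.57, adjusted p = 0.0291). Of 12 purine synthesis genes, 0 were called by limma (3 or 25.0% lower and 1 or 8.33% higher at an unadjusted p under 0.05), and of 15 pyrimidine and folate genes 1 (6.67%) fell, *mthfd2* (-0.29, adjusted p = 0.0474). At an unadjusted p under 0.05, 4 (26.7%) of the 15 were lower and 0 higher. Without the block none of these 7 calls, from *rbbp7* to *mthfd2*, held, with adjusted p from 0.210 for *upp1* to 0.871 for *mthfd2*.

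Of 8 lists of cell type markers, 3 held calls, all of them lower, beside 5.87% of all genes called lower. Of 6 neural crest markers 4 were called lower, with a summed level of 356.6 to 437.1 TPM in controls and 279.2 to 336.6 TPM in morphants, and of 6 muscle markers 3 were called lower, at 4734 to 6357 and 3590 to 4959 TPM. The muscle sums overlapped between groups and include the abundant *actc1*, which was not called. The muscle calls were *myh4*, *tnnc1* and *mylpf*. The uncalled muscle regulators *myod1* and *myf5* gave log2 fold changes of -0.011 and 0.061, with sets of mixed sign. The uncalled neural crest markers *foxd3* and *sox9* gave -0.18 and -0.078, with overlapping groups. Of 5 neuron markers 2 were called lower, at 229.7 to 262.1 and 199.3 to 209.4 TPM. That sum includes the called *tubb2b*, at 69.3 to 86.4 TPM in controls and 36.3 to 46.1 TPM in morphants. The uncalled *elavl3*, *neurog2* and *dll1* had overlapping groups, with log2 fold changes of -0.11, 0.078 and 0.028. Without the block none of these marker calls held, with limma adjusted p from 0.210 for *tubb2b* and *tnnc1* to 0.548 for *snai2*. In the paired fit, 5 neural crest (83.3%), 4 muscle (66.7%) and 2 neuron markers (40%) were lower at an unadjusted p under 0.05. The share of all genes was 23.4%, and 0 of these markers were higher at that p. Of 4 neural plate, 6 epidermis, 6 multiciliated cell, 7 notochord and 6 endoderm markers 0 were called by limma (2, 2, 2, 2 and 0 lower and 0, 1, 0, 0 and 1 higher at an unadjusted p under 0.05). The part of these cell types in the differences of replication genes was not tested.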

How the data were processed

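Per the labels and the paper, polyadenylated RNA of whole embryos was sequenced as Illumina reads, and the authors quantified them with Salmon against the *X. tropicalis* transcriptome and aggregated transcripts to genes. The submitters' processing notes also name cutadapt and sleuth. The deposited values are TPM in 6 columns, beside the authors' group means, which were not used. TPM hold no read depth, so no counting error could be given.

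The log2(TPM + 0.5) of genes averaging 1 TPM or more in a group entered a linear model in limma (3.58.1, R 4.3.3) with terms for replicate number and group. Variances were moderated along their trend with abundance, and p-values were adjusted by Benjamini-Hochberg over all genes fitted. The paper used Sleuth with the same filter and threshold and names no model. The labels number both groups 1 to 3 and the paper describes siblings. The rule of the gene list pairs samples by these numbers, and this pairing was used. An earlier account of these data used the same paired fit, so the model was chosen with results known. Deviations from group means correlated at 0.72, 0.61 and 0.73 in same-numbered samples. The p-values rest on the spread of the group difference between the numbered sets, moderated by the trend over all genes. Nothing says that the sets came from separate clutches, so they are not a measure of the spread between clutches.

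The 50 members and all lists were chosen with earlier results of these data known. Genes given with every sample are the called ones and, in each role, the one with the largest change and the one with the highest TPM. In the lists around them, called genes are named, at most 3 per direction. *mcm6.2*, *rrm2.1*, *rrm2.2*, the ratios and further members were added after their values were seen. Marker lists covered neural plate, neurons, epidermis, multiciliated cells, muscle, notochord, endoderm and neural crest. The code of the fit was checked on data simulated from its own variances, with changes of 1 added on the log2 scale. That check cannot show how well the fit handles smaller changes or the noise of real samples. Alternatives were pseudocounts of 0.1 and 1, no filter or 5 TPM, no block, each set left out, median scaling, quantile normalization, TPM without LOC108645507 and LOC100335111, no trend and, added after seeing the data, summed copies. No sequences were used here.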

Additional observations from a re-analysis of the deposited data

How the results depend on the processing

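The paired fit called 1136 genes, against 1 without the replicate block, 0 without a filter on low TPM (4975 at an unadjusted p under 0.05), 494 without the mean-variance trend and 107 to 1186 with a set left out. Of the 49 genes, 4 were called lower, against 0 without the block, 0 without the filter and 1 without the trend. Median scaling gave 1, quantile normalization 2 and a set left out 0 to 6. Of 13382 genes tested, 786 were called lower in the main fit, 368 without the trend, 381 with median scaling and 402 with quantile normalization. Without set 1, 6 of the 49 and 714 of 13432 genes were called lower. Without set 2 these were 0 and 198 of 13338, and without set 3 they were 0 and 63 of 13347. The 1 called higher became 0 without the block or the filter and 1 to 3 with a set left out. Genes called higher among all tested numbered 350 in the main fit and 472, 85 and 44 without set 1, 2 and 3. Both pseudocounts, the filter at 5 TPM, the fit without the abundant gene pair and the summed copies left all of these counts within 1.5 times of the main ones.

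Median scaling moved the median log2 fold change of the 49 genes from -0.075 to 0.022 and that of all genes to 0.029. It turned 9 uncalled differences positive: *orc1* (0.086), *mcm3* (0.022), *mcm7* (0.029), *cdc45* (0.088), *gins2* (0.018), *mcm10* (0.063), *rfc5* (0.0019), *lig1* (0.073) and *rrm1* (0.035). Quantile normalization did so for *orc1* (0.075), *cdc45* (0.085), *mcm10* (0.012) and *lig1* (0.077), and TPM without the abundant pair for *orc1* (0.012) and *cdc45* (0.013). At an unadjusted limma p under 0.05, quantile normalization gave 12 of the 49 lower and 6 higher, with 3991 of 13382 genes in either direction. That total was not split by direction either, so no matching share of all genes is given. With a set left out, *orc1* ran from -0.10 to 0.053, *cdc45* from -0.13 to 0.083, *pold2* from -0.050 to 0.091, *pcna* from -0.073 to 0.12, *rfc1* from -0.065 to 0.066 and *rfc5* from -0.18 to 0.018. With copies summed, *mcm6* gave -0.22 and *rrm2.1* -0.14. None of these differences was called in the paired fit except that of *rrm2.1*. The cause of the changes was not tested.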
